A study of Mus musculus with 26 samples.

Results

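In wild-type mouse embryonic fibroblasts (MEFs), 7113 promoters carried an EZH2 peak and no H3K27me3 peak. They were taken from the 22316 EZH2 peaks of WT replicate 1. A member was under 5000 bp wide, overlapped an EZH2 peak of WT replicate 2 by at least 1 bp, and lay within 2 kb of the transcription start site (TSS) of a protein-coding gene. No H3K27me3 peak of either WT list touched the window of 2 kb on each side of that TSS. The members served 8006 of 21938 protein-coding genes, 36.5%. The members were thus selected on the EZH2 and H3K27me3 peaks called in WT, and these peaks are described here without a test. Another 1563 EZH2 promoter peaks of the same width limit, at 1545 genes, did have H3K27me3 in WT and are used for comparison.

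EZH2 is the catalytic subunit of Polycomb repressive complex 2 (PRC2), which places methyl groups on lysine 27 of histone H3. The trimethylated form, H3K27me3, marks silent genes, typically developmental regulators whose promoters lie in CpG islands. CpG islands of active genes have unmethylated CpGs too, and PRC2 can meet them without leaving a lasting mark. ATRX is a chromatin remodeler of the SNF2 family. With the histone chaperone DAXX it deposits the histone variant H3.3 at repeats and telomeres, and it binds RNA.

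The study asked what the RNA-binding region (RBR) of ATRX does for the binding of ATRX and PRC2 to chromatin. CUT&RUN, in which an antibody directs the release of bound chromatin fragments for sequencing, was made for ATRX, EZH2 and H3K27me3, and polyadenylated RNA was sequenced. WT cells were female MEFs, ATRXΔRBR cells were 1 clone of them with a CRISPR in-frame deletion of the RBR in the endogenous gene, and ATRX KD cells carried an ATRX shRNA. Each target had 2 libraries per genotype, but ATRX was not profiled in ATRX KD cells, which leaves 16 peak lists and 6 RNA libraries. The clone and the ATRX KD cells had been through puromycin selection. The study calls the replicates biological without saying whether they were separate cultures, so that errors and p-values measure the spread between these libraries only.

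The lists differed in length, from 5376 to 22418 peaks for EZH2, 4781 to 9141 for ATRX and 6336 to 38832 for H3K27me3. The lists carry no read depth, which the study states only as an approximate range for all samples, and a site without a peak may carry signal under the limit of the peak caller. RNA libraries held between 9051693 and 21723647 estimated counts. Of 10 fibroblast markers, 9 were at 1 TPM (RSEM's transcript level, scaled to gene length and library) or more in WT and ATRXΔRBR and 8 in ATRX KD libraries. Thy1 was at 0 in all 6 libraries, and the markers summed to 11588 to 13871 TPM in WT, 18858 to 19096 in ATRX KD and 21483 to 23505 in ATRXΔRBR libraries. The 4 epithelial markers summed to at most 0.91 TPM in any library, and the lists for endothelium, blood, muscle and neural cells to between 0.05 and 12.08 TPM. Of 3 pluripotency markers, Pou5f1 was at 0 in all libraries and Nanog at 0.35 TPM at most, but Sox2 went from 43.9 and 37.1 TPM in WT to 18.7 and 17.5 TPM in ATRXΔRBR libraries and to 1.10 and 0.55 TPM in those of ATRX KD. The collagen gene Col3a1 also differed, with 28.1 and 32.2 TPM in WT, 20.3 and 15.8 TPM in ATRXΔRBR libraries and 0.36 and 0.75 TPM in those of ATRX KD. The part of these differences in the RNA results was not tested. Atrx RNA was at 628 and 433 CPM (counts scaled to library size) in WT and at 373 and 311 CPM in ATRXΔRBR (log2 fold change −0.63 ± 0.22 SE, edgeR adjusted p = 0.14). Scaled with the libraries labelled ATRX KD, it was at 634 and 435 CPM in WT and 411 and 549 CPM in those libraries (−0.15 ± 0.21 SE, edgeR adjusted p = 0.605), and on the scale of mean TPM it was higher there by 1.17 log2 units. The knockdown is therefore not visible in Atrx RNA, and protein was not examined here. By western blot, the study describes ATRX KD cells as depleted of ATRX protein, with less DAXX protein too. The raw file names of the ATRX KD libraries are built differently from those of the other libraries. Genotype and batch therefore cannot be told apart in any comparison with ATRX KD.

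The promoters of 7 members are printed as examples and do not stand for their classes. Each line gives the 200 bases before the TSS, read 5′ to 3′ on the strand of the gene from GRCm38, the build of the peak lists. Capitals mark the CCAAT box (CCAAT), the GC box (GGGCGG), the ETS core (CCGGAAG) and the NRF1 motif (GCATGCGC) on either strand, so that a match on the other strand reads as its reverse complement. Kmt5c and Wbp1 had an ATRX peak in all 4 ATRX lists. Far1 had ATRX in both ATRXΔRBR lists and in neither WT list. Hsd17b12 had EZH2 in all 6 EZH2 lists, with high enrichment in ATRX KD. Trim68 had no EZH2 peak and no RNA counts in ATRXΔRBR. Perp and B4galt4 had an H3K27me3 peak in ATRXΔRBR, and these 2 were added to the printed set after their values were seen.
Kmt5c, chr7:4739915-4740114, + strand: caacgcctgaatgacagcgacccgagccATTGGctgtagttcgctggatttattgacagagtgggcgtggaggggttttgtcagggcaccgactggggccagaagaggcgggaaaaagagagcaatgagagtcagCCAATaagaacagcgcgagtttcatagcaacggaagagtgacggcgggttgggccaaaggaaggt
Wbp1, chr6:83121560-83121759, - strand: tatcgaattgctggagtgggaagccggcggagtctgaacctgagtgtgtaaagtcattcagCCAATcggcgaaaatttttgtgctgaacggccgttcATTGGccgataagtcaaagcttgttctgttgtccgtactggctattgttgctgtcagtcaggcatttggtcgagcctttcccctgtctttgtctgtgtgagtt
Far1, chr7:113513634-113513833, + strand: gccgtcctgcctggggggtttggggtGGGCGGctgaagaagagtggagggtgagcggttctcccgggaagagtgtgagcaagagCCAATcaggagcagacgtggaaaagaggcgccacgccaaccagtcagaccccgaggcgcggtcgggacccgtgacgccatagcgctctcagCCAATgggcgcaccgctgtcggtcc
Hsd17b12, chr2:94157965-94158164, - strand: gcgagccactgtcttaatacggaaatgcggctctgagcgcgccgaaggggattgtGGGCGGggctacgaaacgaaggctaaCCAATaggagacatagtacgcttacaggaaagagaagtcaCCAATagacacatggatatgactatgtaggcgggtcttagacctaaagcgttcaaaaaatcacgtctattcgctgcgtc
Trim68, chr7:102687328-102687527, - strand: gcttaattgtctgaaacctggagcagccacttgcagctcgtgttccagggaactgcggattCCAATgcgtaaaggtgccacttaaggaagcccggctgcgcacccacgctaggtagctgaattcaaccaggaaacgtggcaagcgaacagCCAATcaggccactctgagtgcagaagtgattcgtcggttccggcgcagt
Perp, chr10:18844820-18845019, + strand: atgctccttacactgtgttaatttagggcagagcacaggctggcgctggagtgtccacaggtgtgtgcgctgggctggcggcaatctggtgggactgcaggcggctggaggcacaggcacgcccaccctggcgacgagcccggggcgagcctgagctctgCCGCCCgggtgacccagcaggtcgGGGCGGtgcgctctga
B4galt4, chr16:38742064-38742263, + strand: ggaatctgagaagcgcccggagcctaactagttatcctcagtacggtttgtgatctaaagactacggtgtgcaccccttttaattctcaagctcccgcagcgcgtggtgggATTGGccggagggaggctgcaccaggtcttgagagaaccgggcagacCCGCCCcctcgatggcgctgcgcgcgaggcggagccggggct
None of the 7 windows overlaps an annotated exon. Kmt5c has CCAAT boxes that start 65 bases before the TSS on the strand of the gene and 172 bases before it on the other strand. Wbp1 has them at 139 and 103 bases, Far1 at 116 and 25, Hsd17b12 at 119 and 79 and Trim68 at 139 and 50. Perp has GC boxes and no CCAAT box in this window. Other promoters were read and not printed. Among them were N4bp2l2 and Aasdhppt, with ATRX in all 4 lists, and Slc37a4, with ATRX in both ATRXΔRBR lists and neither WT list. Each of these held 0 matches to the 4 motifs. Over windows of this length, 35.7% of member promoters held a CCAAT box on either strand, against 31.7% of all protein-coding promoters and 25.4% of EZH2 promoters with H3K27me3. The GC box was in 59.8%, 37.5% and 56.8% of the same groups, the ETS core in 13.1%, 7.41% and 4.34%, and the NRF1 motif in 4.73%, 2.90% and 1.81%. A match is a run of letters, not a site of binding.

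The EZH2 peaks of members were narrow and sat on the TSS. Their median width was 691 bp (quartiles 457 and 1016 bp), and that of EZH2 promoter peaks with H3K27me3 was 1583 bp (850 and 2600 bp). The midpoint lay 72 bp downstream of the TSS at the median and within 500 bp of it in 86.9% of members, against 59.1% of those with H3K27me3. A single peak served at least 2 genes in 1142 members (16.1%) and in 78 peaks with H3K27me3 (4.99%). Fold enrichment over the local background was between 3.15 and 13.8 in WT replicate 1, with a median of 5.43. The highest values were at Mdm1 (13.8), Glcci1 (13.0), Msrb1 (12.6), Btrc (12.4) and Entpd7 (12.3). Btrc encodes an F-box protein that selects substrates for ubiquitination, and Msrb1 a methionine sulfoxide reductase. The width limit excluded nothing, since the widest members, at Cpeb2 with 4485 bp and at Arid2 with 4448 bp, lay well inside it and 0 wider peaks met the other criteria.

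The promoters were CpG-rich and active. GC content averaged 63.5% ± 6.49 (SD over 7113 peaks) in member peaks. In the 300 bases from 250 before to 50 after the TSS, 74.9% of member promoters were CpG-rich, defined as at least 50% GC and an observed to expected CpG ratio of at least 0.6. This share was 60.3% for EZH2 promoters with H3K27me3, 10.3% for promoters without EZH2 in WT and 41.3% for all protein-coding promoters. The median RNA level in WT was 35.5 TPM for member genes, 0.205 TPM for genes of EZH2 promoters with H3K27me3 and 1.68 TPM for all protein-coding genes. Of the member genes in the RNA files, 94.4% were at 1 TPM or more, against 34.1% with H3K27me3 and 18.6% without EZH2.

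Several motifs of constitutive promoters were more frequent among members than among all promoters. In the 300-base promoters, the ETS core was in 19.3% of members, 6.15% of EZH2 promoters with H3K27me3 and 10.8% of all promoters. The NRF1 motif, read by a regulator of mitochondrial and housekeeping genes, was in 6.35%, 2.33% and 3.71%. The YY1 motif, bound by a zinc finger factor, was in 2.21%, 0.583% and 1.09%, and the cAMP response element TGACGTCA in 3.66%, 2.14% and 2.43%. Another 1969 promoters had EZH2 in WT but were neither members nor in the group with H3K27me3. Of these, 14.4% held the ETS core, 4.01% the NRF1 motif, 1.42% the YY1 motif and 3.61% the cAMP response element. The GC box separated members (68.1%) from promoters without EZH2 (18.8%) but hardly from those with H3K27me3 (63.3%). The TATA box, searched as TATAAA on both strands, was in 6.25% of members, 7.31% of EZH2 promoters with H3K27me3 and 12.6% of all promoters.

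**Figure D1:**
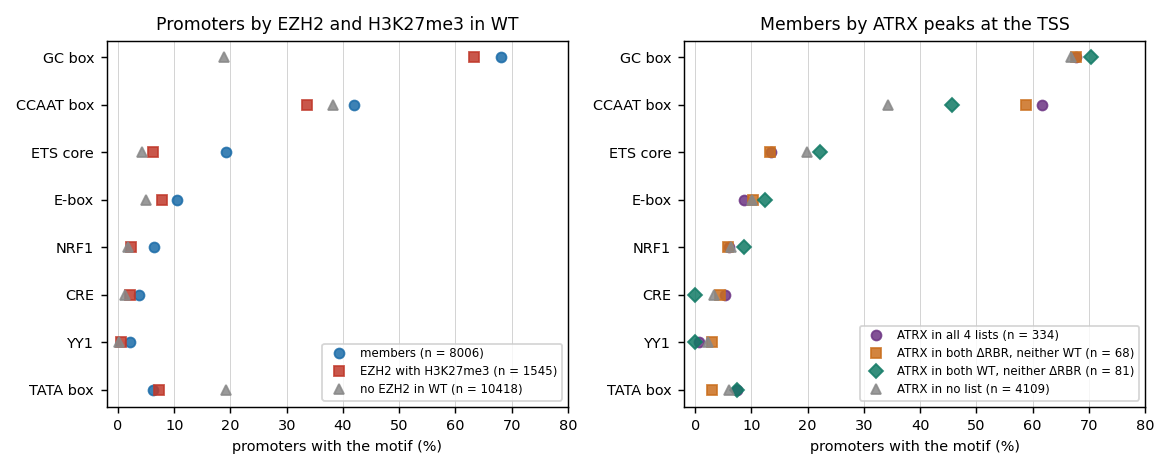
Share of promoters (x axis, %, 300 bases around the TSS) that hold each motif (rows), on the left for members, EZH2 promoters with H3K27me3 and promoters without EZH2 in WT, on the right for members by their ATRX peaks. Members stand to the right for the ETS core (19.3%), and members with ATRX in all 4 lists stand to the right for the CCAAT box (61.7%, against 34.2% with ATRX in no list).

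Genes of the basic cell machinery were often members, as were expressed genes in general. Of 11405 protein-coding genes at 1 TPM or more in WT, 7538 were members. The shares below were not tested against that of expressed genes. Members made up 63.4% of the 82 genes for cytosolic ribosomal proteins, 63.9% of 83 genes for oxidative phosphorylation, 67.5% of 40 proteasome genes, 83.3% of 30 Mediator genes and 18 of 19 genes for replication licensing and the replicative helicase. Of 67 replication-dependent histone genes, 61 were members, as were 16 of 18 genes of cholesterol synthesis. Developmental transcription factors were few, with 24 of 170 as members and 33 as EZH2 promoters with H3K27me3. Of 44 collagen genes 4 were members, and of 19 interferon-stimulated genes 5 were. The promoters of Ezh2, Eed and Suz12, which encode the core of PRC2, were themselves members, and in all 8 of 11 PRC2 genes were. Daxx was a member too.

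EZH2 in ATRXΔRBR and ATRX KD was read from whether a peak of each list overlapped the member. In ATRXΔRBR, 96.7% of members had an EZH2 peak in replicate 1 and 72.8% in replicate 2, a mean of 84.8% ± 16.9 (SD, n = 2). Replicate 2 is the shorter list, with 11408 peaks against 22418. Replicate 1 also had a peak at 5.93% of the 10418 promoters without EZH2 in WT, and replicate 2 at 0.0192% of them. In ATRX KD the shares of members were 38.2% and 49.6%, a mean of 43.9% ± 8.08 (SD, n = 2), from lists of 5376 and 7093 peaks. Both ATRX KD values were below both ATRXΔRBR values, with an exact permutation p of 0.333, two-sided, the smallest that 2 against 2 libraries allow. The promoters with H3K27me3 had EZH2 in 61.4% and 82.9% in the ATRXΔRBR lists, and in 44.98% and 51.3% in those of ATRX KD. The replicates of ATRXΔRBR thus ranked the groups in opposite order, members above the marked promoters in replicate 1 and below them in replicate 2.

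Between replicates, 5100 members (71.7%) had EZH2 in both ATRXΔRBR lists and 153 (2.15%) in neither. Over all 15596 EZH2 peaks shared by the WT replicates, wherever they lay, these shares were 57.4% and 10.2%. In ATRX KD, 2255 members (31.7%) had EZH2 in both lists and 3127 (44.0%) in neither, against 23.4% and 59.1% of the shared WT peaks. In 2070 members EZH2 was present in all 4 lists of ATRXΔRBR and ATRX KD, and in 142 it was in none. Retention rose with the enrichment in WT replicate 1, the list from which the members were taken. From the lowest to the highest quartile of members, the share with EZH2 went only from 91.8% to 99.4% in ATRXΔRBR replicate 1. It went from 49.97% to 93.1% in ATRXΔRBR replicate 2. In ATRX KD it went from 15.9% to 66.0% in replicate 1 and from 25.6% to 78.3% in replicate 2. Where members kept EZH2 in ATRX KD, their median percentile of fold enrichment in those lists was 61.4 and 62.6. All members were at 67.2 and 59.6 in the WT lists. Peaks at promoters with H3K27me3 were at 36.5 and 33.6 in the ATRX KD lists and at 73.6 and 72.2 in the WT lists.

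Among members with EZH2 in both ATRX KD lists, fold enrichment there was highest at the promoters of Sspn, Hsd17b12, Gna12, Zbtb18, Nup62 and M6pr. Sspn, which encodes sarcospan of the dystrophin complex, had the highest value of these genes within each ATRX KD list. Its peak of 259 bp lay 1248 bp downstream of the TSS and had 5.29 and 4.50-fold enrichment in WT, 12.8 and 13.5 in the ATRX KD lists and 3.31 and 2.41 in the ATRXΔRBR lists. Hsd17b12, for a reductase of fatty acid elongation, had 5.58 and 6.16 in WT, 7.19 and 7.02 in the ATRX KD lists and 8.01 and 5.84 in the ATRXΔRBR lists. Gna12, for a G protein alpha subunit, had 7.25 and 11.7, then 6.80 and 7.32, then 13.4 and 8.22 in the same order. Fold enrichment is not scaled between libraries, so these values are set side by side and not compared. The members with the highest WT values and no EZH2 in any ATRXΔRBR or ATRX KD list, at Spire2, Slc10a3, Ttc23l, Rnf114, Numbl and Zmynd10, were between 170 and 686 bp wide.

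**Figure D2:**
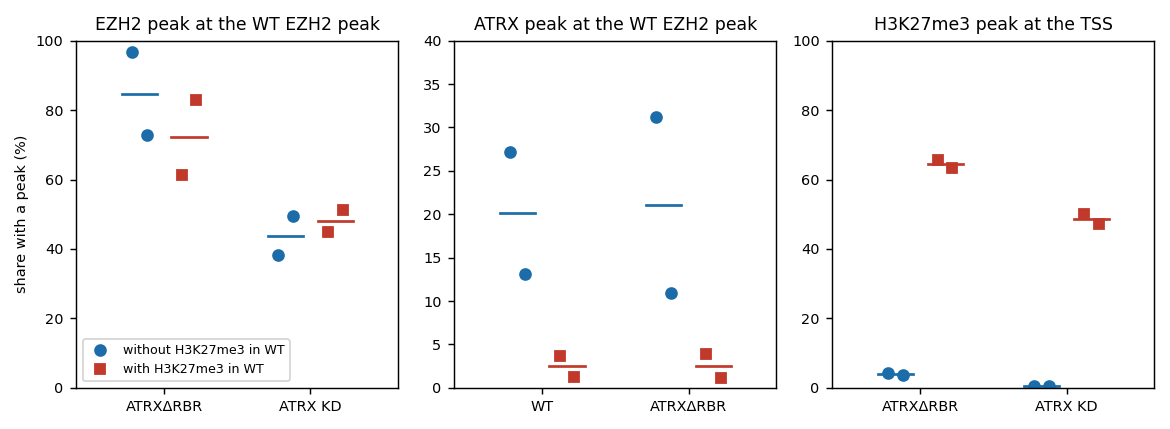
Share of sites with a peak (y axis, %) in each library (points) and the mean of 2 libraries (bars), for promoters without H3K27me3 in WT (circles) and with it (squares); the ATRX panel ends at 40%. Members had ATRX in 10.97% to 31.2% and marked promoters in 1.09% to 3.90%, and ATRX KD libraries had EZH2 at fewer members (38.2% and 49.6%) than ATRXΔRBR libraries (96.7% and 72.8%).

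ATRX was found at many members and seldom at EZH2 promoters with H3K27me3. In WT, 27.1% and 13.1% of members had an ATRX peak, a mean of 20.1% ± 9.94 (SD, n = 2). In ATRXΔRBR, 31.2% and 10.97% did, a mean of 21.1% ± 14.3 (SD, n = 2). The difference was 1.01 percentage points, within the spread between replicates (exact permutation p = 1.0, two-sided, smallest possible 0.333). The promoters with H3K27me3 had ATRX in 3.65% and 1.28% in WT and in 3.90% and 1.09% in ATRXΔRBR, so that each list had ATRX at a larger share of members. All EZH2 peaks of WT replicate 1, in or outside promoters, had ATRX in 26.7% and 14.4% in WT and 20.8% and 13.7% in ATRXΔRBR, close to members in WT. ATRX was found at members of every RNA level. Over 6 ranges of TPM, from under 0.1 to over 60, its share lay between 26.0% and 38.2% in WT replicate 1 and between 11.4% and 25.4% in WT replicate 2. It lay between 24.1% and 37.6% in ATRXΔRBR replicate 1 and between 9.11% and 16.8% in replicate 2. Promoters without EZH2 stayed at or under 4.62% in the same ranges in all 4 lists. The highest shares of members in both WT lists were in the lowest range. Of 171 member genes under 0.1 TPM, 19 were replication-dependent histone genes, whose mRNAs lack a poly(A) tail. Another member gene at 1 TPM or more shared the EZH2 peak of 90 of the 171. The share of members with ATRX rose with EZH2 enrichment in WT replicate 1, the list from which members were taken. From the lowest to the highest quartile it went from 12.7% to 47.5% in ATRX WT replicate 1. It went from 20.2% to 45.7% in ATRXΔRBR replicate 1. In the replicate 2 lists it went from 7.70% to 20.9% in WT and from 6.80% to 17.2% in ATRXΔRBR. Neither this rise nor the overlap of EZH2 and ATRX peaks was checked against the IgG libraries of WT and ATRXΔRBR.

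An ATRX peak was present in at least 1 of the 4 lists at 3259 members (45.8%) and in all 4 at 273. Both WT lists had ATRX at 612 members and both ATRXΔRBR lists at 502. Gains and losses that held in both replicates were few. In both ATRXΔRBR lists and neither WT list there were 55 members (0.773%), against 0.457% of all EZH2 peaks of WT replicate 1. In both WT lists and neither ATRXΔRBR list there were 71 (0.998%), against 1.23%. Leaving out a replicate number, which removes 1 list of each genotype, gave 281 and 1091 gains and 430 and 798 losses, so that single lists differed at many more members than both pairs did.

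Among members with ATRX in all 4 lists, those of high enrichment included Kmt5c, N4bp2l2, Wbp1, Med15 and Aasdhppt. Kmt5c, which encodes a methyltransferase of histone H4 lysine 20, had 7.08 and 7.502-fold ATRX enrichment in WT and 5.98 and 7.24 in ATRXΔRBR, with EZH2 in all 6 lists. Wbp1 had 6.22 and 6.39 in WT and 7.40 and 5.94 in ATRXΔRBR. Med15, a Mediator subunit, had 6.60 and 7.80 and then 5.09 and 5.88. Among those with ATRX in both ATRXΔRBR lists and neither WT list, enrichment was highest in ATRXΔRBR at Cep68 (6.20 and 4.76), Pik3ca (5.70 and 4.91), Far1 (6.49 and 4.01), Slc37a4 (5.88 and 3.999), Lrig1 (4.99 and 4.74) and Cyld (5.03 and 4.67). Pik3ca encodes the catalytic subunit of a phosphoinositide 3-kinase, Far1 a fatty acyl-CoA reductase and Cyld a deubiquitinase. All 6 had EZH2 in both ATRXΔRBR lists. Ccdc191, a locus the study examined, belonged to the same class, with ATRX enrichment of 4.78 and 4.39 in ATRXΔRBR and no ATRX peak in WT.

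The CCAAT box was more frequent in members with ATRX than in those without. In the 300-base promoters it was in 61.7% of 334 member genes with ATRX at the TSS in all 4 lists and in 58.8% of 68 with ATRX in both ATRXΔRBR lists only. It was in 45.7% of 81 genes with ATRX in both WT lists only and in 34.2% of 4109 with ATRX in none. Without histone genes, the shares were 60.4% of 321 and 34.2% of 4107. The GC box (67.7% against 66.8%) and the CpG-rich share (72.5% against 74.4%) were close between ATRX in all 4 lists and ATRX in none, and the ETS core was less frequent with ATRX (13.5% against 19.9%). Members with EZH2 in both ATRX KD lists also held the CCAAT box more often, in 51.7% of 2718 genes against 35.1% of 3295 with EZH2 in neither.

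Groups of genes differed widely in ATRX. Of the 61 member histone genes, which lie in clusters so that their windows overlap, 49 and 25 had ATRX at the TSS in WT and 57 and 24 in ATRXΔRBR. Their mRNAs end in a stem-loop and not in a poly(A) tail, and their median in these polyadenylated libraries was 0.395 TPM. Of 16 members of cholesterol synthesis, 9 and 6 had ATRX in WT and 11 and 6 in ATRXΔRBR. Of 18 replication genes, 7 and 8 did in WT and 9 and 5 in ATRXΔRBR. No ATRX list had a peak at any of the 14 members of the PRC1 list, the other Polycomb complex. Over all member genes the shares at the TSS were 29.3% and 14.1% in WT and 33.3% and 11.8% in ATRXΔRBR.

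H3K27me3 could only be gained by members, since they were chosen to lack it in WT. An H3K27me3 peak touched the TSS window of 4.15% and 3.71% of member genes in the ATRXΔRBR lists, a mean of 3.93% ± 0.309 (SD, n = 2), and of 0.612% and 0.462% in the ATRX KD lists. The ATRX KD lists were the shorter, with 7241 and 6336 peaks against 38651 and 33105. Both ATRXΔRBR lists had it at 252 member genes (3.15%), against 4.39% of all 18137 protein-coding TSS free of H3K27me3 in WT and 5.89% of those without EZH2 in WT. Both ATRX KD lists had it at 19 (0.237%, against 0.397%), and 6 genes had it in all 4 lists. Members thus gained H3K27me3 no more often than other unmarked promoters. EZH2 was at the TSS in both ATRXΔRBR lists at 221 of the 252 genes. Of the 119 member genes with EZH2 in neither ATRXΔRBR list, 1 had H3K27me3 in both.

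The peaks covered 1332 and 1032 bp of the 4001 bp window at the median in the ATRXΔRBR replicates. At 24 of the 252 genes they covered all of it in both. A WT H3K27me3 peak lay under 5000 bp from the TSS of 57 of the 252 genes (22.6%) and of 213 of the 7754 other member genes (2.75%), and the median distance was 51472 bp and 94350.5 bp. Wnt5a was an example of a near one, with the nearest WT peak 2773 bp away, whereas Perp was 39106 bp and B4galt4 52244 bp from theirs. The 24 covered genes tie, and Fzd3, Perp, Txndc16, B4galt4, St6gal1 and Papss2 are the first 6 in the order of their gene identifiers. Perp had no EZH2 peak in ATRXΔRBR replicate 2, and the other 5 had EZH2 in both. In ATRX KD, H3K27me3 covered 2562 and 831 bp at St6gal1, 590 and 0 bp at Papss2 and none of the window at the other 4.

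RNA was compared with edgeR's quasi-likelihood test over all genes, and a gene was called at an adjusted p under 0.05 (Benjamini-Hochberg). In ATRXΔRBR, 161 of 7712 tested member genes were higher than in WT (2.09%, against 2.79% of all 16334 genes tested) and 164 were lower (2.13%, against 4.07%). In either direction, 4.21% of members were called, against 6.85% of all genes. Without WT replicate 2, 257 were higher. With all 6 libraries in a single fit there were 382 higher and 351 lower, and without a filter on low counts 335 and 319. The median log2 fold change of members was −0.01 and that of all genes −0.02. The genes of EZH2 promoters with H3K27me3 were called more often, with 43 higher and 166 lower of 766.

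Genes that gained H3K27me3 had another balance. Of 238 tested genes with H3K27me3 at the TSS in both ATRXΔRBR lists, 42 were lower (17.6%) and 3 higher (1.26%), with a median log2 fold change of −0.25. Of 7354 with H3K27me3 in neither list, 116 were lower (1.58%) and 157 higher (2.13%), with a median of −0.00297. The gaining genes were less expressed, at a WT median of 11.75 TPM against 36.6 TPM. Among members under 20 TPM in WT, 32 of 143 gaining genes were lower (22.4%) against 54 of 2228 that did not gain it (2.42%). The balance was similar far from and near to WT H3K27me3, with 35 of 186 lower at 5000 bp or more and 7 of 52 under 5000 bp. Of the 23 tested genes whose whole window was covered in both lists, 10 were lower. The same 252 genes gave 48 higher and 49 lower of 239 tested in ATRX KD, where 6 of them had H3K27me3 in both lists, and both comparisons use the same WT libraries.

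Perp, which encodes a p53 effector of cell junctions, was at 409 and 368 CPM in WT and 56.6 and 62.8 CPM in ATRXΔRBR. Both mutant libraries were far below both WT libraries (log2 fold change −2.70 ± 0.18 SE, edgeR adjusted p = 0.000335). Papss2, for an enzyme that makes the sulfate donor of the cell, was at 17.7 and 18.2 CPM in WT and 1.90 and 1.09 CPM in ATRXΔRBR (−3.62 ± 0.31 SE, edgeR adjusted p = 0.000716). Wnt5a, a secreted ligand of noncanonical Wnt signaling, was at 29.6 and 26.0 CPM and then at 4.02 and 5.07 CPM. The groups did not overlap (−2.60 ± 0.23 SE, edgeR adjusted p = 0.000747). Ptx3, a long pentraxin, was at 139 and 113 CPM against 28.8 and 33.8 CPM, and Zfp503, a zinc finger repressor, at 101 and 72.0 CPM against 17.3 and 15.7 CPM. Both were called lower, as were Zfp704, the nuclear receptor Nr2f1, the cGMP phosphodiesterase Pde5a, the kinesin Kif5c, Txndc16 and the adhesion receptor Adgrl1. B4galt4, a galactosyltransferase, was at 17.9 and 16.6 CPM against 5.71 and 5.72 CPM (−1.59 ± 0.22 SE, edgeR adjusted p = 0.00452). Fzd3, a Wnt receptor, and the sialyltransferase St6gal1 had H3K27me3 over the whole window and did not pass the test, at log2 fold changes of −0.84 ± 0.24 SE and −0.56 ± 0.23 SE. The 3 higher genes were Asns, the asparagine synthetase, at 213 and 193 CPM against 444 and 470 CPM, Paqr3 and Inpp4a.

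**Figure D3:**
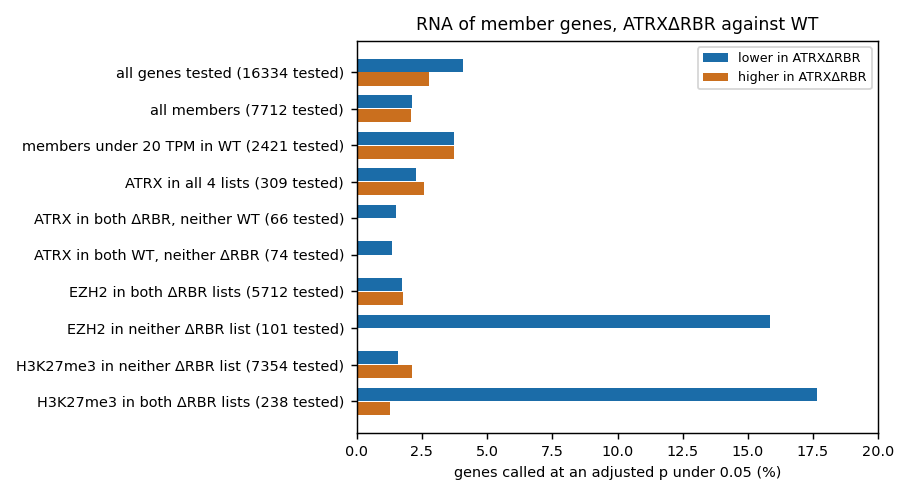
Share of genes called lower or higher in ATRXΔRBR RNA (x axis, %, edgeR adjusted p under 0.05) for all genes tested, all members and subsets of members by their peaks (rows, with the number tested). The lower share stands at 17.6% for genes with H3K27me3 in both ATRXΔRBR lists and 15.8% for those with EZH2 in neither, against 2.13% of all members.

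Members with EZH2 in neither ATRXΔRBR list were also called lower more often, which came from the list of replicate 1. Of 101 tested genes with EZH2 at the TSS in neither ATRXΔRBR list, 16 were lower (15.8%) and 0 higher by edgeR, with a median log2 fold change of −0.15. By DESeq2 13 were lower and 0 higher, and 9 were higher at an unadjusted edgeR p under 0.05. Of 5712 with EZH2 in both, 98 were lower and 102 higher. The genes without EZH2 had a WT median of 13.9 TPM. Their promoters were less often CpG-rich (46.2%, against 74.9% of members) and more often held a TATA box (15.1%, against 6.25%). Among members under 20 TPM in WT, 14 of 52 genes with EZH2 in neither list were lower against 47 of 1793 with EZH2 in both. The difference came from the list of replicate 1, since 37 of 164 genes without EZH2 in that list were lower and 2 higher, while 45 of 1937 without EZH2 in replicate 2 were lower and 57 higher. Peaks of replicate 1 also went with RNA level. Among promoters without EZH2 in WT, it had a peak at 1.90% up to 0.1 TPM and at 34.6% over 60 TPM. In replicate 2 these shares were 0.0141% and 0%. The part of this in the RNA calls was not tested. When at least 10 counts were required in every library, which removes genes that are silent in ATRXΔRBR, 7 genes were lower.

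Trim68, for a ubiquitin ligase of the tripartite motif family, had 51 and 62 counts in WT and 0 and 0 in ATRXΔRBR, at least 16.9-fold lower against a floor of 3 counts per library. Ccdc3 had 46 and 36 counts in WT and none in ATRXΔRBR, at least 12.2-fold lower. Hspb1, Lrrc61 and Bnc1 were also at 0 in both ATRXΔRBR libraries, from at most 15 counts in WT. Adgrl2, an adhesion receptor of the latrophilin family, was at 85.4 and 114 CPM in WT and 10.7 and 7.39 CPM in ATRXΔRBR (log2 fold change −3.48 ± 0.26 SE, edgeR adjusted p = 0.000452). Abi3bp, an extracellular matrix protein, was at 17.2 and 24.0 CPM against 0.740 and 0.869 CPM (−4.65 ± 0.32 SE, edgeR adjusted p = 0.00036). In both genes the genotypes were clearly apart. Plpp3, Tshz3, Tpd52l1, Dpy19l3, Isyna1, Adgre5, Pir, Tmem200a and Thsd7a completed the 16. Thsd7a had also lost ATRX from both lists.

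**Figure D4:**
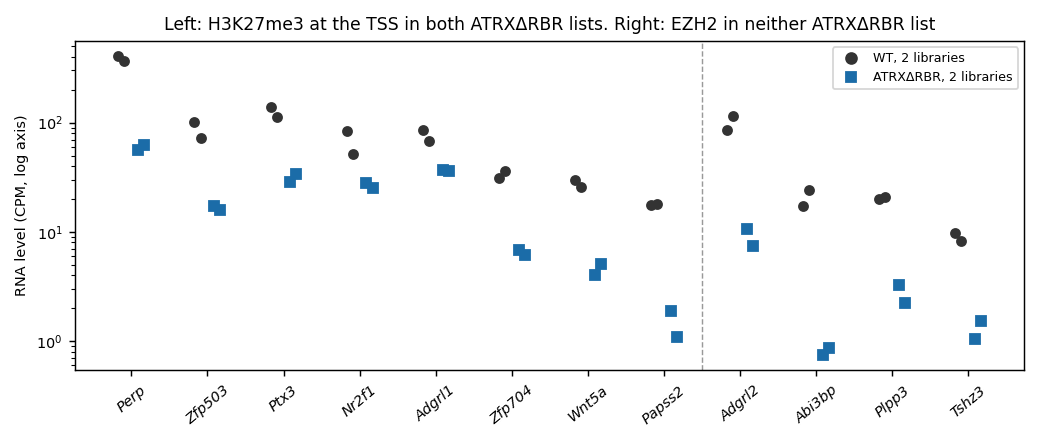
RNA level in CPM (y axis, log scale) of 12 genes called lower in ATRXΔRBR, chosen after their values were seen, in the 2 WT (circles) and 2 ATRXΔRBR libraries (squares). Genes that gained H3K27me3 are on the left of the dashed line and genes with EZH2 in neither ATRXΔRBR list on the right. In each gene both ATRXΔRBR libraries lie below both WT libraries, as in Perp with 56.6 and 62.8 CPM against 409 and 368 CPM.

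RNA calls were few among members whose ATRX peaks changed. Of 66 tested genes with ATRX gained in both ATRXΔRBR lists, 1 was lower and 0 higher by edgeR, and of 74 with ATRX lost, 1 was lower and 0 higher. By DESeq2, 0 were higher in either group, and at an unadjusted edgeR p under 0.05 there were 3 and 2. At the shares of all genes tested (2.79% higher and 4.07% lower), groups of this size would hold few calls, so that the counts do not set them apart. The lower genes were Lrig1, an inhibitor of growth factor receptors, at 53.8 and 56.0 CPM in WT and 26.1 and 24.3 CPM in ATRXΔRBR (log2 fold change −1.12 ± 0.17 SE, edgeR adjusted p = 0.00797), and Thsd7a. Far1 was at 73.0 and 112 TPM in WT and 125 and 74.1 TPM in ATRXΔRBR, where the groups overlap. Of 309 genes with ATRX in all 4 lists, 8 were higher and 7 lower, and of 3974 with ATRX in none, 86 were higher and 113 lower.

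The largest increases among members in ATRXΔRBR were in genes of low level. P2rx3, an ATP-gated channel, was at 0.228 and 1.25 CPM in WT and 8.24 and 6.95 CPM in ATRXΔRBR (log2 fold change 3.37 ± 0.56 SE, edgeR adjusted p = 0.0108). Plxdc1, Actn3, Pdzd7, Slc25a45, the ETS factor Etv1 and Peli3 followed, each between 0.531 and 2.50 CPM in the WT libraries. Npr1, the natriuretic peptide receptor, was the most abundant of the 8, at 4.17 and 4.59 CPM in WT and 19.5 and 23.4 CPM in ATRXΔRBR (2.29 ± 0.23 SE, edgeR adjusted p = 0.00114). The 8 largest decreases were Trim68, Ccdc3, Prkaa2, Setbp1, 3830406C13Rik, Adam19, Nudt7 and Abi3bp. Prkaa2, a catalytic subunit of AMP-activated kinase, had 87 and 97 counts in WT and 2 and 2 in ATRXΔRBR. Setbp1, for a protein that binds the SET oncoprotein, was at 22.6 and 32.1 CPM against 0.634 and 0.724 CPM (−5.30 ± 0.33 SE, edgeR adjusted p = 0.000335). The PRC2 genes Ezh2 (log2 fold change 0.28 ± 0.16 SE), Eed (−0.27 ± 0.19 SE) and Suz12 (0.14 ± 0.18 SE) did not pass the test, nor did Daxx (−0.16 ± 0.17 SE). Of the loci that the study examined and that were members, Fzd7 (0.52 ± 0.17 SE), Ccdc191 (0.63 ± 0.26 SE), Gins2 (0.06 ± 0.18 SE), Rnf40 (0.05 ± 0.17 SE) and Slc25a16 (−0.01 ± 0.18 SE) did not pass it either. For Rnf40, the study reports higher RNA in ATRXΔRBR by RT-PCR, as much as under an EZH2 inhibitor. RT-PCR is another method than the sequencing used here.

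In the libraries labelled ATRX KD, 1430 of 7734 tested member genes were higher than in WT (18.5%, against 15.2% of all 16785 genes tested) and 1540 were lower (19.9%, against 17.8%). The counts moved with each library. Without ATRX KD replicate 1 there were 801 higher and 713 lower, without ATRX KD replicate 2 759 and 737, without WT replicate 1 2230 and 2425, and without WT replicate 2 2564 and 2642. On the scale of mean TPM the median of all genes shifted to 0.16 and that of members to 0.21, from −0.02 and −0.01, so that directions below are relative to the other genes. Calls were about as frequent where EZH2 remained as where it did not, with 453 higher and 505 lower of 2621 genes with EZH2 in both ATRX KD lists and 608 higher and 656 lower of 3178 with EZH2 in neither. Of 17 tested genes with H3K27me3 at the TSS in both ATRX KD lists, 14 were lower and 1, Bend3, was higher, at a median log2 fold change of −1.79. With at least 10 counts in every library, 8 were lower. Oaf was at 64.5 and 46.8 CPM in WT and 14.0 and 11.8 CPM in the ATRX KD libraries (−2.13 ± 0.20 SE). Kitl, the ligand of the Kit receptor, was at 39.5 and 46.6 CPM against 17.2 and 16.8 CPM.

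Cholesterol synthesis was lower across its members. Of 16 tested genes 15 were lower and 0 higher by edgeR, at a median log2 fold change of −1.30, between −1.34 and −1.08 over all alternative fits, those without a library included. Cyp51, the lanosterol demethylase, was at 1660 and 1655 CPM in WT and 514 and 519 CPM in ATRX KD (−1.68 ± 0.10 SE, edgeR adjusted p = 0.00014). Sqle, the squalene epoxidase, was at 1098 and 1108 CPM against 354 and 369 CPM (−1.61 ± 0.11 SE, edgeR adjusted p = 0.000174). Both ATRX KD libraries were below both WT libraries in either gene. By DESeq2 15 were lower and 0 higher, and 0 were higher at an unadjusted edgeR p under 0.05. In ATRXΔRBR, 0 of the 16 were called by edgeR or by DESeq2, and 1 was lower at an unadjusted edgeR p under 0.05, at a median of −0.05. Members for cytosolic ribosomal proteins had 37 of 51 lower at a median of −1.27 (−1.42 to −0.96), where reads shared with pseudogenes make single values uncertain. Members for oxidative phosphorylation had 27 lower and 1 higher of 51, at a median of −0.62 (−0.84 to −0.35), and proteasome subunits 15 of 27 lower at −0.46. Of 10 COMPASS and trithorax members 4 were higher, among them Kmt2a at 108 and 145 CPM against 207 and 232 CPM. Of the PRC2 genes, Ezh2 was higher (0.37 ± 0.11 SE, edgeR adjusted p = 0.0434), and Eed, Mtf2, Rbbp7 and Phf1 were lower.

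Among the largest decreases, 8 members were at 0 counts in both ATRX KD libraries. Cacna2d1, an auxiliary subunit of calcium channels, had 970 and 1110 counts in WT, at least 359-fold more. Cdkn1c, the imprinted inhibitor of cyclin-dependent kinases, had 271 and 192 counts, at least 79.1-fold more. Galnt17, Gm44502, Nhs, Rprm, Fam221a and Dlg2 had between 36 and 158 counts in each WT library. The largest increases were at Gm20458, Angptl4, Nrip3, Syn1, Zbed6, Cntnap1, Chchd10 and Slco4a1. Gm20458 and Zbed6 had 0 counts in 1 WT library. Angptl4, an inhibitor of lipoprotein lipase, was at 0.843 and 1.00 CPM in WT and 43.9 and 50.3 CPM in ATRX KD (5.67 ± 0.22 SE, edgeR adjusted p = 3.35e-05). Slco4a1, an organic anion transporter, was at 8.58 and 9.62 CPM against 69.3 and 72.1 CPM (2.96 ± 0.15 SE, edgeR adjusted p = 7.84e-05). Whether the shRNA, the selection or the batch moves with these genes was not tested.

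RNA of members also varied by chromosome, together with that of other genes. In ATRXΔRBR, the median log2 fold change of members was 0.32 on chromosome 1 and 0.28 on chromosome 15, and that of other expressed protein-coding genes was 0.29 and 0.35 there. It was −0.23 on both chromosomes 5 and 9, where the others were at −0.24 and −0.26. In ATRX KD the members on chromosome 15 were at −0.42 and on chromosome 19 at −0.38, with others at −0.51 and −0.38. EZH2 lists varied too, with a peak of ATRXΔRBR replicate 2 at 45.5% of members on chromosome 6 and 86.3% on chromosome 5. Chromosome copy number was not measured, and its part in these values was not tested.

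**Figure D5:**
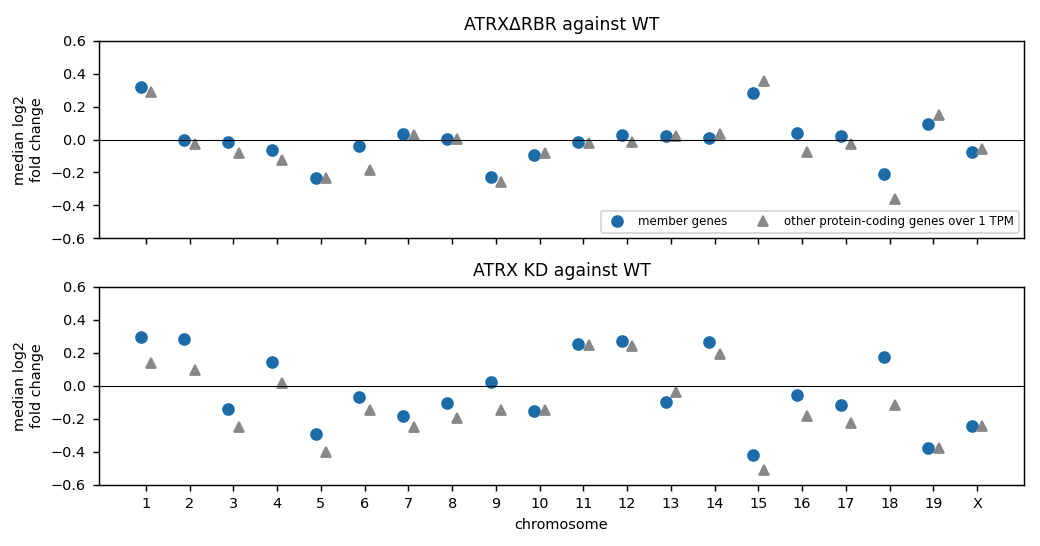
Median log2 fold change of RNA (y axis) per chromosome (x axis) for member genes (circles) and other protein-coding genes over 1 TPM (triangles), in ATRXΔRBR (top) and ATRX KD (bottom) against WT, without chromosome Y, which held 1 member. Circles and triangles move together, as on chromosome 1 in ATRXΔRBR with 0.32 and 0.29.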

How the data were processed

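For CUT&RUN, the authors used Bowtie2 to map reads to mm10 (GRCm38) and the broad mode of MACS2 to call peaks per library. Each deposited peak has a fold enrichment (a ratio to the local background), −log10 p and −log10 q values and a score, which was not used here. RNA reads were aligned by the authors with STAR, from which RSEM gave the deposited estimated counts, TPM and FPKM values, of which FPKM was not used. IgG libraries were not analysed here.

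The members and gene lists were chosen with earlier results of these data known. Peaks were placed on GENCODE M21 with Python 3.11.15, and overlap counted from 1 bp. Estimated counts were rounded, genes with over 10 counts in total over 4 libraries were kept (CPM is scaled by TMM), and edgeR 4.0.16 in R 4.3.3 tested each genotype against WT with its quasi-likelihood test and Benjamini-Hochberg adjustment. Scripts were tested on simulated data. Shares over lists had exact permutation tests. Promoters were read from the genome, and motifs searched by their letters on both strands.

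Genes were named by rule. In each RNA comparison these were the 8 called members with the largest change per direction among those with at least 50 counts whose genotypes did not overlap, beside every called member of a gene list. For peaks they were the top 6 by enrichment of each ATRX or EZH2 class, the top 6 by H3K27me3 coverage (ties in order of gene identifier), the top 5 by WT EZH2, the widest members and loci the study names. Other genes in the text, with those called among H3K27me3 gains and EZH2 losses, were named after their values were seen. Some results that the rule would name are not reported here. The H3K27me3 antibody is given differently by the labels and the study's supplement.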

Additional observations from a re-analysis of the deposited data

How the results depend on the processing

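The peak lists carry no read depth, so that shares over lists of unequal length carry the length of the list, and with 2 libraries per group no permutation test over shares can pass 0.05. Of 161 values computed under alternatives, 118 stayed within the replicate spread or within 1.5 times the count and 43 moved. The count of 118 is no measure of robustness. Leaving out 1 of 2 replicates cannot move a share beyond their SD, and a wide SD lets large shifts pass. By this rule EZH2 in ATRXΔRBR stayed when it went from 84.8% to 69.5% at 50% coverage. The medians of members, which lie near 0, changed sign in some fits.

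When a peak had to cover at least 50% of a member, the mean share with EZH2 in ATRX KD went from 43.9% to 22.0% and with ATRX in WT from 20.1% to 6.85%. H3K27me3 at the TSS went to 1.04% in ATRXΔRBR and 0.0187% in ATRX KD, and ATRX losses to 26. With peaks at a q-value of 0.01 or less, EZH2 in ATRX KD was at 30.5%, H3K27me3 at 2.85% in ATRXΔRBR and 0.137% in ATRX KD, ATRX gains at 35 and losses at 37. Using 1 replicate number alone gave 281 to 1091 ATRX gains and 430 to 798 losses. GC content in 200 bp at the midpoint was 66.0%.

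For RNA in ATRXΔRBR, 382 members were higher and 351 lower with all 6 libraries in a single fit, 335 and 319 without a filter on low counts, and 108 lower with at least 10 counts in every library. Leaving out a library gave between 169 and 257 higher and between 142 and 228 lower members. With at least 10 counts in every library, 7 members without EZH2 in ATRXΔRBR were lower, and in ATRX KD 8 with H3K27me3 were. For ATRX KD, leaving out a library gave 759 to 2564 higher and 713 to 2642 lower. The median log2 fold change of members in ATRX KD was −0.013 with all 6 libraries, −0.024 without a filter, 0.21 on the scale of mean TPM, and −0.0231 to 0.00569 without a library, above 0 without ATRX KD replicate 1 (0.00569) or WT replicate 2 (0.00164). In ATRXΔRBR it was above 0 on the scale of mean TPM (0.0461) and without WT replicate 1 (0.00125) or WT replicate 2 (0.00908). The alternatives on mean TPM, those on the H3K27me3 and EZH2 subsets and the crossed pairing were chosen after seeing the data. The causes were not tested.

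The labels give the genotypes the same replicate numbers but no shared culture or day. As a block, the numbers gave 119 higher and 136 lower members in ATRXΔRBR, 41 lower among H3K27me3 gains and 17 among EZH2 losses. In ATRX KD the block gave 1469 and 1546, 14 lower among H3K27me3 gains and a median of −0.0039. Libraries of the same number deviated in opposite directions (r = −0.745 over 9662 genes for ATRXΔRBR, −0.190 over 9633 for ATRX KD). Under crossed replicate numbers as a block, ATRXΔRBR had 1504 higher and 1517 lower members, 97 lower among H3K27me3 gains and 37 among EZH2 losses, and the ATRX KD median was −0.0015.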

Other observations

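A small set of members had little RNA in WT. Of the 7983 member genes in the RNA files, 171 were under 0.1 TPM. Among them, 19 were replication-dependent histone genes, 63 were predicted genes with a name that starts with Gm, and 90 shared their EZH2 peak with another member gene at 1 TPM or more. The RNA files held no row for 23 member genes.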
